A study of Mus musculus with 3 samples.

Results

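Replication-dependent histone genes encode the core histones H2A, H2B, H3 and H4 and the linker histone H1 that package newly made DNA. In the mouse most of them lie in gene clusters, and many copies of a class encode the same or nearly the same protein. They were followed here in endothelial cells of the embryonic kidney, as genes that had a probe set with exactly 1 gene symbol and whose older symbol began with Hist1h, Hist2h, Hist3h or Hist4h. This gave 31 genes with 31 of the 35557 probe sets on the array: 5 of H1, 5 of H2A, 11 of H2B, 3 of H3 and 7 of H4. The annotation used here carries the newer symbols (H2ac4 for Hist1h2ab, for example), so that 0 of its symbols matched the older form, and the genes were found by their gene identifiers and their older symbols in RefSeq. RefSeq lists 70 genes with such a symbol. Of these, 38 occurred only in probe sets that list several genes, and 1 was not listed. Probes can cross-hybridize between histone copies, also where the annotation names a single gene, and each member's value is that of its single-symbol probe set. A member may also be listed in a probe set of several genes. H2aw, for example, is listed with Trim17 in a probe set at 7.33, 7.33 and 7.31 (log2) on arrays 1, 2 and 3. Such probe sets did not enter a member's value. A value of any other gene with several single-symbol probe sets is their mean, as for H2az1, Slbp and Pcna (2 each).

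The cells were sorted from kidneys of CD-1 mouse embryos that carry the Tie2-GFP transgene Tg(TIE2GFP)287Sato, in which the promoter of the endothelial receptor gene Tek drives a green fluorescent protein. The embryos were at day 15.5 (Theiler stage 23). Each of 3 pools of 4 to 5 kidneys was dissociated with trypsin, its GFP-positive cells were sorted, and its RNA was amplified in 1 round and hybridized to 1 Affymetrix Mouse Gene ST array. All 3 arrays belong to this single group, so no untreated, GFP-negative or other control group was compared. The labels give no litter for a pool, so a p-value covers the spread over the 3 arrays, which may in part be technical.

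The synthesis of these histones is coupled to DNA replication. Their mRNAs carry no poly(A) tail in dividing cells and end instead in a conserved stem-loop, which the stem-loop binding protein Slbp recognizes and the U7 small nuclear ribonucleoprotein helps to cut. Npat, a substrate of cyclin E and Cdk2, activates their transcription as cells enter S phase, and the mRNAs are degraded when replication stops. The set also holds genes outside this pattern. H1f6 (Hist1h1t), H2ac1 (Hist1h2aa) and H2bc1 (Hist1h2ba) are known as testis-type histones, and H2bu1-ps (Hist3h2bb) is a pseudogene.

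Values are the deposited log2 signals. Each was set against the raw level of 100 (6.64 on the log2 scale) that the study used to screen out low signals. The study required that level in at least 3 samples and with its own processing, so the cut may not mean the same for these values. "Above" and "below" refer to a one-sided test of the mean of the 3 arrays against that level with limma, adjusted over all probe sets by the Benjamini-Hochberg method, with a threshold of 0.05. A gene with several single-symbol probe sets was called above if any of them was, and below only if all were. Shares of all probe sets count each probe set by itself. The moderated test gave nearly full weight to the spread of each probe set, and a second call used 1 SD of 0.491 log2 units pooled over all probe sets.

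Of the 31 histone genes, 15 were above the level, 9 were below it and 7 were neither. Over all probe sets, 35.5% were above and 41.7% were below. With the pooled spread, 14 members were above and 6 below, beside 34% and 38.7% of all probe sets. A value of at least 100 on every array was found for 16 of the 31 and for 42% of all probe sets, and a value under 100 on every array for 12 of the 31 and 47.3% of all probe sets. Without the testis-type genes and the pseudogene, 14 of 27 were above and 8 below. The members above the level came from H1 (3 of 5), H2A (3 of 5), H2B (5 of 11) and H4 (4 of 7), and 0 of 3 from H3. By gene cluster, 10 of 23 Hist1 genes were above the level and 7 below, against 2 above and 2 below of the 4 Hist2 genes. Of the 3 Hist3 genes, 2 were above, and the single Hist4 gene was above. Most member calls changed when at least 1 array was left out, and the share called above fell for all probe sets too. The share of all probe sets that kept a call under every omission was not computed, so the next count has none beside it. Of the 24 members called above or below, 5 kept their call whichever array was left out: H2ac1 above, and H2bc1, H2bc8, H3c7 and H4c8 below. H2ac1, H2bc8 and H4c8 had equal values on all arrays, so leaving an array out could not change their mean or spread. H2bc1 and H3c7 had equal values on arrays 1 and 2. Without array 1, 7 members were above and 5 below (23.7% and 25.4% of all probe sets). Without array 2, 4 were above and 4 below (21.7% and 24.6%), and without array 3, 3 were above and 11 below (32.9% and 42.7%).

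**Figure D1:**
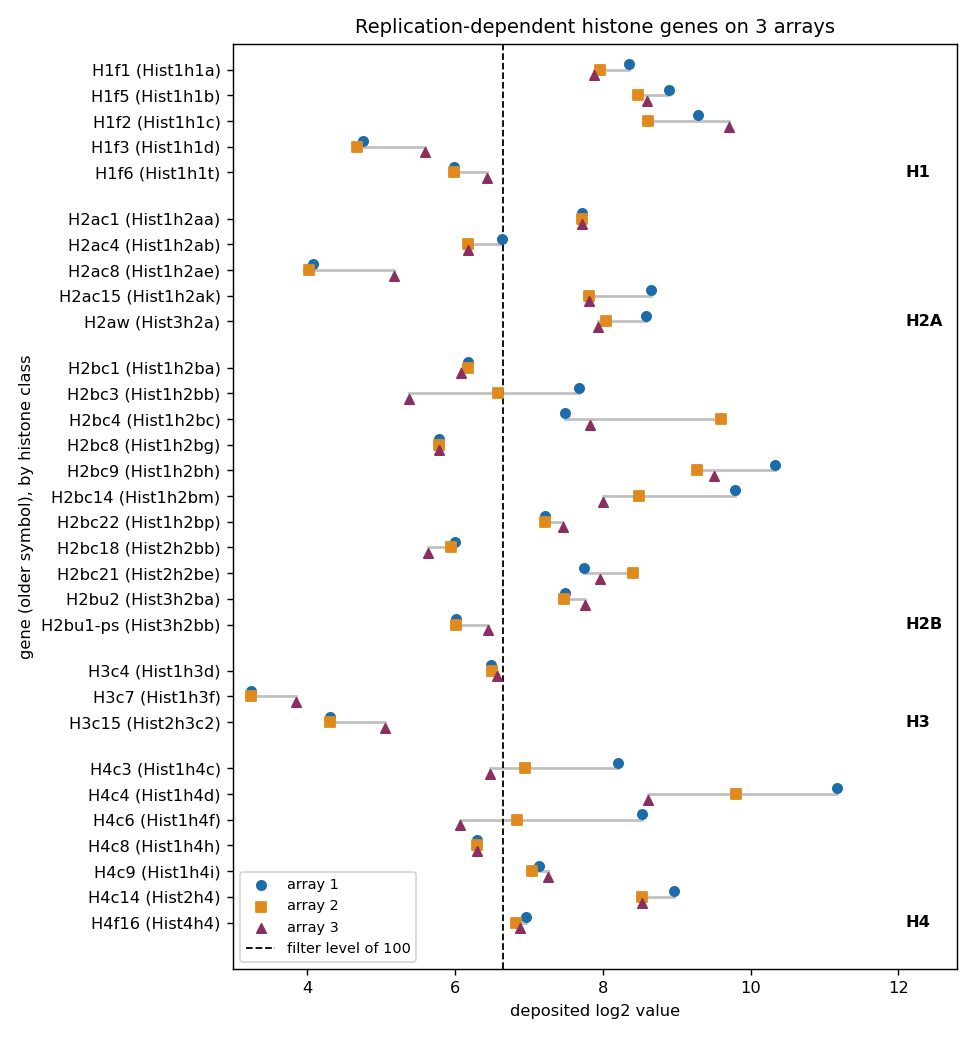
Deposited log2 value (horizontal axis) of each of the 31 histone genes, one row per gene grouped by class; circles, squares and triangles are arrays 1, 2 and 3, grey lines span them, and the dashed line is the level of 100. H4c4, H2bc9 and H1f2 lie right of the line on every array, the 3 H3 genes lie left of it, and H4c4, H4c6, H4c3, H2bc3 and H2bc14 spread widely with array 1 highest.

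H1 binds the linker DNA between nucleosomes, and H1f1 to H1f5 are its somatic subtypes. H1f2 (Hist1h1c) had log2 values of 9.29, 8.61 and 9.70 on arrays 1, 2 and 3, a mean of 9.20 ± 0.55 (SD, n = 3). H1f5 (Hist1h1b) had 8.89, 8.48 and 8.60, with a mean of 8.66 ± 0.21. H1f1 (Hist1h1a) had 8.36, 7.96 and 7.88, with a mean of 8.07 ± 0.26. All 3 genes were above the level, with limma adjusted p of 0.0125, 0.00311 and 0.00877, and none of their 9 values fell under 100. H1f3 (Hist1h1d) was below the level, with 4.76, 4.68 and 5.59. The testis-type H1f6 had 5.98, 5.98 and 6.43 and was neither above nor below (limma adjusted p for below = 0.0552). The 2 linker genes that were not above the level were thus under it on every array.

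H2A pairs with H2B in the nucleosome core. H2aw (Hist3h2a) had 8.59, 8.05 and 7.94, with a mean of 8.19 ± 0.35. H2ac15 (Hist1h2ak) had 8.66, 7.82 and 7.82, with a mean of 8.10 ± 0.49. Both were above the level, with limma adjusted p of 0.0136 and 0.0292, and both were highest on array 1. The testis-type H2ac1 was above as well, at 7.72 on all 3 arrays. H2ac4 (Hist1h2ab), with 6.64, 6.17 and 6.17, was neither, and H2ac8 (Hist1h2ae), with 4.08, 4.02 and 5.17, was below. Equal values across arrays, as for H2ac1, occurred on at least 2 arrays for 12 of the 31 members and for 55.9% of all probe sets, and on all arrays for 3 members and 19.7% of all probe sets. Such ties give a very small SD and lower the p-value of the test.

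H2B was the class with the most members. H2bc9 (Hist1h2bh) had 10.33, 9.28 and 9.51, with a mean of 9.71 ± 0.55 and a limma adjusted p of 0.0088. H2bc14 (Hist1h2bm) had 9.80, 8.49 and 8.01, with a mean of 8.77 ± 0.92 and a limma adjusted p of 0.0486. These were the H2B members farthest above the level, and the call of H2bc14 lay close to the threshold. H2bc21 (Hist2h2be), H2bu2 (Hist3h2ba) and H2bc22 (Hist1h2bp) were also above, with means of 8.04 ± 0.34, 7.57 ± 0.16 and 7.30 ± 0.14. In human cells the counterparts of H1f2, H2bc4 and H2bc21 are known to make polyadenylated transcripts as well.

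H2bc3 (Hist1h2bb) and H2bc4 (Hist1h2bc) had the largest SDs in this class, and they did not run the same way across arrays. H2bc3 had 7.68, 6.58 and 5.37, with a mean of 6.54 ± 1.16. H2bc4 had 7.49, 9.61 and 7.83, with a mean of 8.31 ± 1.14. H2bc3 was highest on array 1 and lowest on array 3, while H2bc4 was highest on array 2. Neither passed the test, although every value of H2bc4 was over 100 (limma adjusted p = 0.112), and with the pooled spread H2bc4 was above. H2bu1-ps, the pseudogene, had 6.01, 6.01 and 6.44 and was neither. The testis-type H2bc1 had 6.17, 6.17 and 6.09 and was below, but not with the pooled spread. H2bc18 (Hist2h2bb), with 6.01, 5.95 and 5.64, and H2bc8 (Hist1h2bg), at 5.79 on all arrays, were below under both.

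H3 and H4 form the tetramer at the centre of the nucleosome. The single-symbol probe sets of 3 H3 genes were all below the level. H3c4 (Hist1h3d) had 6.49, 6.51 and 6.57, just under it, and was not below with the pooled spread. H3c15 (Hist2h3c2) had 4.31, 4.31 and 5.06. H3c7 (Hist1h3f) had 3.25, 3.25 and 3.85. H3c15 and H3c7 were each highest on array 3. Array 1 minus array 3 was -0.75 and -0.60 for them, and after quantile normalization -0.44 and -0.11. These 3 probe sets stand for few of the H3 genes, since 10 further probe sets of this class list 12 histone genes each. Whether these 3 genes are among the 12 was not examined. All 10 were at least 100 on every array, beside 42% of all probe sets, so the 3 calls do not give the level of H3 mRNA as a whole.

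Among H4 genes, H4c4 (Hist1h4d) had 11.17, 9.81 and 8.61, with a mean of 9.86 ± 1.28, and was above the level (limma adjusted p = 0.0409). H4c14 (Hist2h4) had 8.96, 8.53 and 8.53, with a mean of 8.68 ± 0.25, and was above (limma adjusted p = 0.00412). H4c4 had both the mean farthest above the level and the largest SD among the 31 members. H4c6 (Hist1h4f) had 8.54, 6.84 and 6.07, with a mean of 7.15 ± 1.26. H4c3 (Hist1h4c) had 8.21, 6.95 and 6.48, with a mean of 7.21 ± 0.90. On array 3 both lay under the level that they exceeded on arrays 1 and 2, and neither passed the test (limma adjusted p = 0.575 and 0.384). H4c9 (Hist1h4i) had 7.14, 7.04 and 7.26 and H4f16 (Hist4h4) had 6.96, 6.83 and 6.88. Both were above the level, and H4c8 (Hist1h4h), at 6.30 on every array, was below. With the pooled spread none of these 3 passed.

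The 3 arrays differed in histone signal, and the pattern was not shared by all members. H4c4 was 5.9-fold higher on array 1 than on array 3, H4c6 5.52-fold, H2bc3 4.96-fold, H2bc14 3.45-fold and H4c3 3.33-fold. These 5 of 31 members were at least 1 log2 unit higher on array 1, beside 8.53% of all probe sets. Among probe sets with a mean of at least 100, the count was 4 of 18 members and 13.6% of such probe sets, and after quantile normalization it was 4 of 18 and 9.33%. Of the same 18 members, 11 were higher on array 1 and 6 on array 3, beside 53.8% and 26.1% of such probe sets. None of them was at least 1 log2 unit higher on array 3 (0 of 18, beside 3.17%), and 6 were highest on array 1 and lowest on array 3 with array 2 between, beside 22.9%. In all 5, array 2 lay between. The reverse difference of at least 1 log2 unit was seen only for H2ac8 (1 of 31, beside 7.1% of all probe sets). After quantile normalization array 1 minus array 3 was -0.75 for H2ac8. The remaining members lay within 1 log2 unit either way, and the median difference of array 1 minus array 3 over the 31 members was 0.00. Over all members, 15 were higher on array 1 and 13 on array 3, beside 32.6% and 45.7% of all probe sets. Array 2 lay between a highest array 1 and a lowest array 3 for 8 of the 31, beside 12.7% of all probe sets. After quantile normalization the count of members at least 1 log2 unit higher on array 1 was again 5, beside 7.11% of all probe sets. A single group of 3 arrays gives no contrast to test, so these are descriptions of 3 pools.

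Probe sets that list several histone genes were left out of the membership and cannot be given to a gene, but their values bear on how the members are read. There were 27 of them: 2 of H2A, 7 of H2B, 10 of H3, 6 of H4 and 2 others that mix a histone gene with another gene or class. Among them, 24 patterns of values were distinct. The H2B probe sets had medians of 11.91, 10.00 and 8.69 on arrays 1, 2 and 3. The H3 probe sets had 9.52, 7.79 and 7.32, and the H4 probe sets had 10.79, 9.84 and 8.57. The medians of these 3 classes were thus highest on array 1 and lowest on array 3. The H2A pair had medians of 10.39, 9.94 and 9.75.

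Of the 27 shared probe sets, 22 were at least 1 log2 unit higher on array 1 than on array 3. This was so for 8.53% of all probe sets and 13.6% of those with a mean of at least 100. After quantile normalization the count was again 22, beside 7.11% and 9.33%. Before that normalization the 22 were all 7 of H2B, all 10 of H3, 5 of 6 of H4 and 0 of 2 of H2A. The fold of array 1 over array 3 was between 7.05 and 14.4 for H2B, with a median of 12.3. For H3 it was between 3.42 and 5.96, with a median of 5.03. For H4 the median was 4.48. After quantile normalization the median difference in log2 units was 3.26 for H2B, 2.05 for H3, 1.78 for H4 and 0.29 for H2A. These probe sets share target sequence and are not independent of one another. In the moderated test, 10 of the 27 were above the level and 17 were neither, although 26 of 27 were at least 100 on every array. With the pooled spread, 25 were above. Over all probe sets, 35.5% were above in the moderated test and 34% with the pooled spread. At least 100 on every array was reached by 42% of all probe sets.

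**Figure D2:**
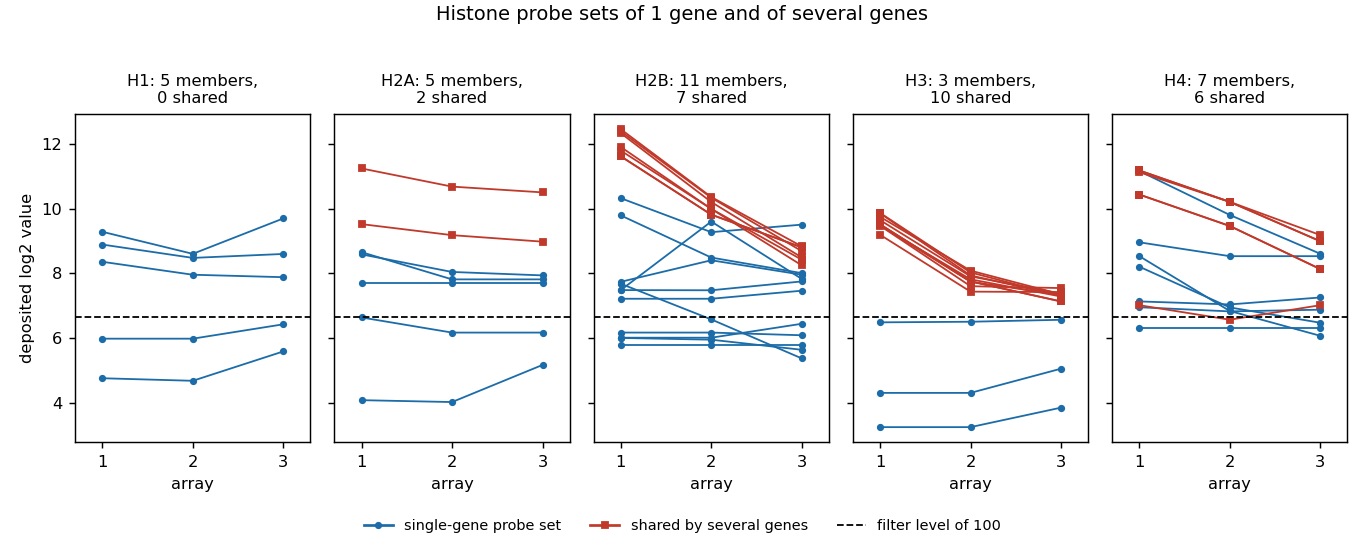
Deposited log2 value (vertical axis) on arrays 1, 2 and 3 (horizontal axis; the arrays have no order, and lines only join the values of a probe set), with 1 panel per class. Blue circles are the 31 single-gene probe sets, red squares the 25 shared probe sets of H2A, H2B, H3 and H4, and the dashed line is the level of 100. The shared H2B and H3 probe sets are all highest on array 1, while only 5 single-gene probe sets are at least 1 log2 unit higher there than on array 3.

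Some sets of cell type markers also differed between the arrays, and others had a median difference close to 0.00. The 12 pan-endothelial marker genes were all higher on array 1 than on array 3. The median difference was 1.05 log2 units (0.69 after quantile normalization). Above the level were 11 of the 12, beside 35.5% of all probe sets. At least 1 log2 unit was reached by 7 of the 12, and by 2 after quantile normalization. Of probe sets with a mean of at least 100, 53.8% were higher on array 1. At least 1 log2 unit was reached by 13.6% of them (9.33% after quantile normalization). Tek itself, whose promoter drives the transgene, had 11.12, 10.97 and 10.13. The sum of the linear signals of the 12 genes was 18871 on array 1, 16635 on array 2 and 9995 on array 3. The 13 macrophage marker genes were all lower on array 1 than on array 3, with a median difference of -1.59 log2 units, and their linear signals summed to 1538, 3913 and 6636. Of these 13, 1 was above the level, and 8 were with the pooled spread (35.5% and 34% of all probe sets). Over all probe sets, 45.7% were lower on array 1 than on array 3. For capping mesenchyme, ureteric bud, and stroma and mural markers (8 genes each) the median difference was 0.00. For 8 erythroid markers it was -0.006. The part of these cell types in the histone differences was not tested. Arrays 1 and 2 correlated at r = 0.976 across probe sets, and array 3 with them at 0.923 and 0.927. The whole-array medians were 6.50, 6.51 and 6.55, and the lower quartiles were 5.32, 5.35 and 5.56. The SDs over all probe sets were 2.08, 2.06 and 1.84, so the values of array 3 were the least spread. In bulk samples, fewer cells of a type and less RNA per cell cannot be told apart.

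Genes of DNA replication were also mostly higher on array 1. Among S phase genes, 16 of the 19 measured were above the level, 0 were below, beside 35.5% and 41.7% of all probe sets. Without array 1, 9 were above, and without array 2, 8 (23.7% and 21.7% of all probe sets). On array 1, 16 of the 19 were higher than on array 3, and 9 were by at least 1 log2 unit, beside 53.8% and 13.6% of probe sets with a mean of at least 100. The median difference was 0.89 log2 units. After quantile normalization it was 0.51, and 4 of 19 reached 1 log2 unit. Pcna, the sliding clamp of the replicative polymerases, had 11.97, 11.97 and 11.81, while Rrm1, the large subunit of ribonucleotide reductase, had 9.80, 9.73 and 8.19. Rrm1 was thus lowest on array 3, and Pcna differed little. Both genes were named after their values were seen. Mcm5, Cdc6 and Pole, at 8.88, 8.32 and 8.10 on array 1 against 7.48, 6.82 and 6.62 on array 3, did not pass the test. How the histone differences relate to the S phase genes was not tested.

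**Figure D3:**
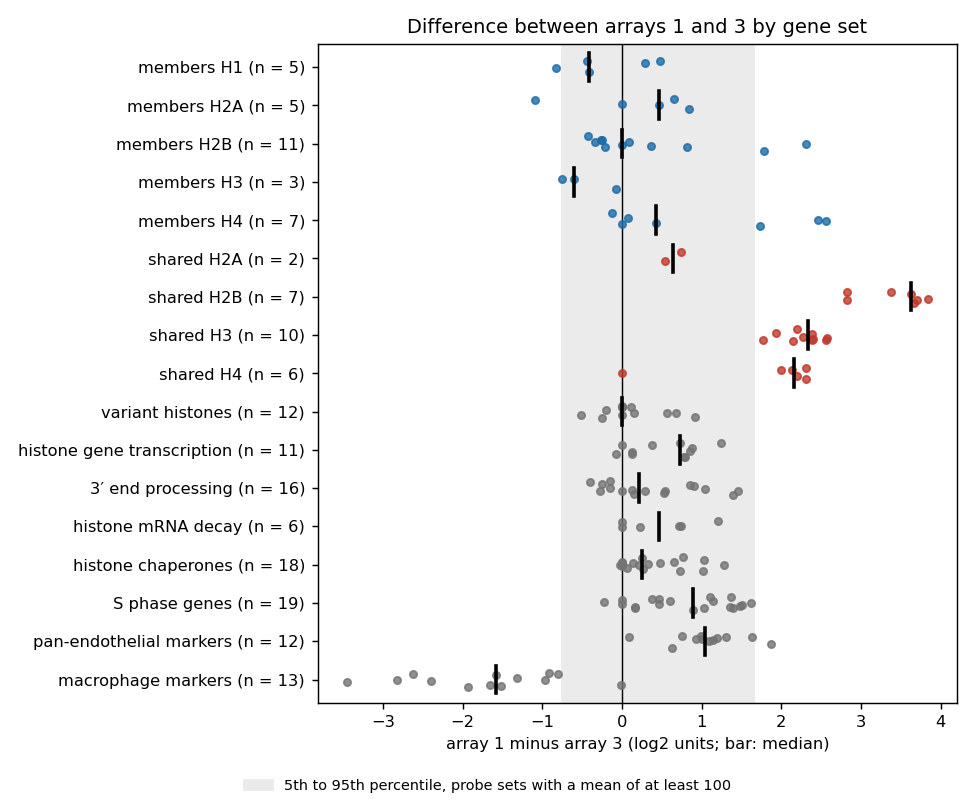
Difference of array 1 minus array 3 in log2 units (horizontal axis) for each gene or probe set (points) by group, with medians as black bars; blue are histone members, red shared histone probe sets and grey related lists and cell type markers. Shading spans the 5th to 95th percentile, -0.76 to 1.65, of probe sets with a mean of at least 100. The shared H2B, H3 and H4 probe sets have medians beyond the shading, the class medians of the members lie within it, and the macrophage markers lie left of 0.

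The genes that make and process histone mRNA were mostly above the level. Histone gene transcription had 11 measured genes, of which 9 passed the test above the level and 0 below, beside 35.5% and 41.7% of all probe sets. Without array 2, 4 of them were above, beside 21.7% of all probe sets. Npat had 7.96, 7.96 and 7.18 (limma adjusted p = 0.0469). Casp8ap2, which is found with Npat at histone locus bodies, had 8.99, 8.91 and 8.87. Both were above the level, and for both array 3 was lowest. Hinfp, the zinc finger factor of H4 promoters, had 6.88, 6.86 and 6.03 and was neither. Ccne1, a cyclin E that activates Cdk2, had 8.20, 8.20 and 6.96 and did not pass the test either.

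In 3′ end processing, 13 of 16 measured genes were above the level and 0 below it, beside 35.5% and 41.7% of all probe sets. Without array 2, 7 were above, beside 21.7% of all probe sets. Slbp had 9.62, 9.63 and 9.47, with a spread of 0.09 log2 units (SD, n = 3). Lsm11, a protein of the U7 ribonucleoprotein, had 7.25, 7.25 and 7.40 and was above. Its partner Lsm10 had 8.12, 9.03 and 7.27 and was neither (limma adjusted p = 0.0848), though above with the pooled spread. Slbp was nearly level across the arrays on which the shared H2B probe sets differed by a median of 12.3-fold. How Slbp relates to that difference was not tested. Zfp473, whose human counterpart is a zinc finger protein associated with the U7 ribonucleoprotein, had 6.18, 6.18 and 6.58 and was neither, as was the nuclease gene Mblac1 at 7.75, 8.29 and 6.30. All 6 genes of histone mRNA decay were above the level, beside 35.5% of all probe sets. Without array 1, 3 of them were above, and without array 2, 2 (23.7% and 21.7% of all probe sets). Among the 6 was Eri1, the exonuclease that trims the stem-loop, with 9.41, 9.30 and 9.19 (Eri1 was named after its values were seen).

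Among chaperone and acetyltransferase genes, 15 of the 18 measured were above the level and 1 below, beside 35.5% and 41.7% of all probe sets. Without array 2, 9 were above, beside 21.7% of all probe sets. Nasp, a chaperone of H3 and H4, had 11.70, 11.72 and 11.72, the same on the 3 arrays to within 0.03 log2 units. Tonsl, which binds new H3 and H4 at replication forks, was below the level at 5.97 on all arrays. Ubn1, with 7.53, 7.53 and 6.81, and Cabin1, with 6.90, 6.90 and 6.42, both partners of Hira, were neither.

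Many variant histones are also made outside S phase, from genes with polyadenylated mRNAs. Of 12 measured, 10 were above the level and 1 below, beside 35.5% and 41.7% of all probe sets. H2az1 (H2afz) had 13.10, 12.91 and 12.42, and H2ax (H2afx), which is phosphorylated at DNA breaks, had 9.88, 9.96 and 9.73. Cenpa, the centromeric H3, had 10.35, 10.14 and 9.78. H2az1 and Cenpa were highest on array 1 by 0.68 and 0.57 log2 units over array 3, while the median over the 12 variants was 0.00. H3f3a, which encodes H3.3, was at 6.67 on every array, and was above the level by the moderated test but not with the pooled spread. The oocyte-type H1f8 was below at 5.94, and the testis-type H1f7, with 6.73, 6.73 and 5.80, was neither.

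The promoters of the members shared short sequence elements. RefSeq promoter windows of mouse build GRCm38.p6 were matched for 26 of the 31 members, and the 250 bases before the gene start were searched on both strands. CCAAT, the site of the trimeric factor NF-Y, was found in 21 of 26 windows (80.8%), beside 33.8% of all 32851 windows. TATAAA was found in 15 (57.7%, beside 12.4%). ATTTGCAT, the octamer, was found in 9 (34.6%, beside 1.6%), in 4 of 5 H2A windows and 5 of 8 H2B windows and in none of H1, H3 or H4. AAACACA, the H1 box, was found in 8 (30.8%, beside 6.25%), 4 of them in the 5 H1 windows. GGTCCG was searched after the H4 windows had been read. It occurred in 5 of 6 H4 windows and in 1 other member window, beside 6.72% of all windows. These letters lie in the H4 element to which the factor encoded by Hinfp is known to bind. Each motif was counted alone, and no overlap between motifs was removed. A site in bases shared by neighbours on opposite strands was counted for each of them. The octamer of H2ac8 is the same site as that of H2bc8, and the octamer of H2ac1 is the same site as that of H2bc1. The 9 windows thus hold fewer than 9 separate octamers, and these pairs share sites of other motifs as well. A match is only a run of letters and was not tested for binding.

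Promoter stretches of the 3 H4 genes that differed most between arrays are given first, followed by H4c9, an H4 gene nearly level across arrays. H2bc14 and H2bc3, H2B genes that differed between arrays, and H1f2, the H1 gene farthest above the level, complete the set. Each stretch is the last 130 bases before the gene start, 5′ to 3′ on the gene's strand, and capitals mark the motifs named above on either strand (CCAAT also as its complement ATTGG).
H4c4, chr13:23581438-23581567, plus strand: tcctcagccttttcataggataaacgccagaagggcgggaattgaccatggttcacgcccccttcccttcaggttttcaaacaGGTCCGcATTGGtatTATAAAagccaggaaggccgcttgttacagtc
H4c6, chr13:23551669-23551798, minus strand: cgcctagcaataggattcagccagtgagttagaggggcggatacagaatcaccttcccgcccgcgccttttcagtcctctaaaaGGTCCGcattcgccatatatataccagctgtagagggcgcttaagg
H4c3, chr13:23698459-23698588, minus strand: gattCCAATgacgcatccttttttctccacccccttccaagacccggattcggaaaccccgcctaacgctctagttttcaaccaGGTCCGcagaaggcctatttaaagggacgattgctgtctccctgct
H4c9, chr13:22041363-22041492, minus strand: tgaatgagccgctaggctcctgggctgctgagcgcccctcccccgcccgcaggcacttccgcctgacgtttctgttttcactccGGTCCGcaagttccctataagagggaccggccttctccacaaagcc
H2bc14, chr13:21721914-21722043, plus strand: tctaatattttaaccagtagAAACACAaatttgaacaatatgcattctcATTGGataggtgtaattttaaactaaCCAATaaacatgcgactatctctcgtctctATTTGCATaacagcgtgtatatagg
H2bc3, chr13:23746604-23746733, plus strand: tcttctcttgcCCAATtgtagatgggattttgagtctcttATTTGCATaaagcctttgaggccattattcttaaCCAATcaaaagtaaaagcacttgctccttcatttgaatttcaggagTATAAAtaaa
H1f2, chr13:23738677-23738806, plus strand: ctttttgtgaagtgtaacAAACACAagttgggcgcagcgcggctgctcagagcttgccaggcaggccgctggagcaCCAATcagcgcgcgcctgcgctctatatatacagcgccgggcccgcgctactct

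The H4 stretches share GGTCCG at nearly the same distance from the start, with its first base 47 bases upstream in H4c4 and 46 in H4c6, H4c3 and H4c9. H4c4, H4c6 and H4c3, which were higher on array 1, and H4c9, which was not, all hold it. Of the 5 members that were at least 1 log2 unit higher on array 1, 4 windows held CCAAT and 3 held TATAAA, against 17 and 12 of the other 21 windows. The octamer was in 2 of these 5 and in 7 of the other 21, and GGTCCG was in 3 of the 5, the H4 genes among them, and in 3 of the other 21. Some members also share a promoter region with a neighbour on the opposite strand. Overlap was taken over the full windows, which run past the gene start and are longer than the stretch searched for motifs. The full windows of H2ac8 and H2bc8, both below the level, overlap by 279 bases. Those of H2ac1 and H2bc1, of which H2ac1 was above and H2bc1 below, overlap by 220 bases.

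**Figure D4:**
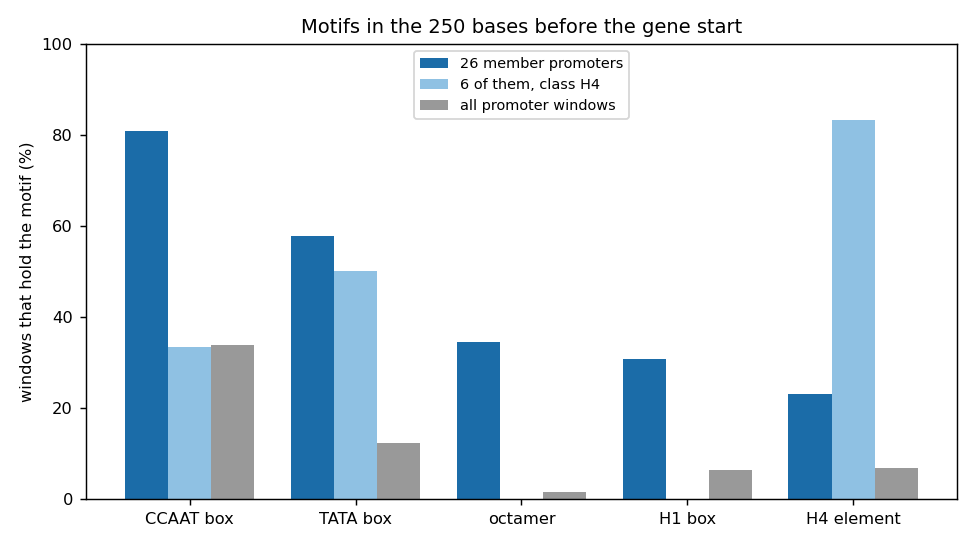
Share of promoter windows (vertical axis, percent) that hold each motif in the 250 bases before the gene start. Bars give the 26 member windows, the 6 of them in class H4, and all 32851 windows. CCAAT is in 80.8% of member windows and 33.8% of all. The H4 element GGTCCG, searched after the H4 windows had been read, is in 83.3% of H4 windows and 6.72% of all.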

How the data were processed

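The labels describe 3 samples of one group, numbered by their titles. The deposited table holds log2 values, which the authors made. Affymetrix Expression Console, with no version, appears in the submitters' processing notes, and how probes were summarized for this table was not given in the sources used here. RMA in GeneSpring is described for the study's own analysis. Values were used as deposited, so a floor or ties made upstream stay in them. No value column was left out.

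Of 35557 probe sets, 21789 had 1 symbol in the platform annotation. Symbols were updated through RefSeq (GRCm38.p6). The level test was an intercept-only limma fit (3.58.1, R 4.3.3) with eBayes on all probe sets, tested on simulated data. The estimated prior had 0.41 degrees of freedom. The number of arrays limits the precision. Alternatives were the pooled spread, an intensity trend, quantile normalization, levels of 64 and 200, smaller sets of probe sets, and each array left out. Values were named for the members farthest above, those not above and those with the largest SD in each class, for the testis-type members, and for fixed genes of the supply pathway and the variants. Members and lists were chosen with earlier results of these data known. Protein sequences and H3f3b and H1f0, which had no single-symbol probe set, were not analysed here.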

Additional observations from a re-analysis of the deposited data

How the results depend on the processing

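Of 31 members, 15 were above and 9 below the level of 100. The intensity trend, quantile normalization, the pooled spread and the fit of probe sets with 1 symbol left the count above between 14 and 15 and the count below between 6 and 10. The fit of probe sets at or above the receptor background held 28 of the 31 members, of which 15 were above and 6 below. It left out H2ac8, H3c7 and H3c15, which were below in the full fit. At a level of 200, 4 members were above and 15 below (15.5% and 64.6% of all probe sets), and at a level of 64, 19 were above and 3 below (52.3% and 23.7%). With each array left out in turn, 3 to 7 members were above and 4 to 11 below. With 2 arrays the test has fewer degrees of freedom, and 5 of the 24 single calls were kept whichever array was left out (the share over all probe sets was not computed). All 5 had equal values on at least 2 arrays. H2bc1, H3c4 and H4c8 moved to the other side at a level of 64, where the mean minus the level was 0.14 for H2bc1, 0.52 for H3c4 and 0.30 for H4c8. At a level of 200 it was -0.34 for H2bc22, -0.071 for H2bu2, -0.50 for H4c9, -0.76 for H4f16, -0.97 for H3f3a and -0.34 for Lsm11. The counts of histone members higher on array 1, at all or by at least 1 log2 unit, stayed within 1.5 times under quantile normalization. The reverse difference of H2ac8 fell under 1 log2 unit. At that cut the S phase count fell from 9 to 4 of 19, and the pan-endothelial count from 7 to 2 of 12. No paired analysis was possible because the 3 arrays form a single group.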
